A study of Mus musculus with 2 samples.

Results

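The endoplasmic reticulum (ER) chaperones and the genes of the unfolded protein response were followed on Illumina mouse bead arrays in S100A4+ stromal cells, sorted by flow cytometry from the lung. The set was defined by gene symbol and holds 39 genes, of which 34 had at least 1 probe among the 16590 genes named on the array, with 49 probes in all. No probe carried the symbol of Dnajb11, Sdf2l1, Ero1l, Atf6 or Sec61g. The first group was metastatic lung, from S100A4-GFP transgenic BALB/c mice that bore tumours of 4T1, a line of mouse mammary carcinoma known to metastasise to lung. The second was normal lung, from S100A4-GFP transgenic BALB/c mice. Both groups carry the reporter transgene, and the cells were taken for its green fluorescence, so any cell type that expresses S100A4, a calcium-binding protein of fibroblasts and many leukocytes, can be present. Each group had 1 array, and the sources used here give neither the age of the mice nor any pooling of animals.

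Proteins that enter the secretory pathway fold in the ER with the help of chaperones, lectins and disulfide isomerases. When unfolded protein builds up, the membrane sensors IRE1 (gene Ern1), PERK (gene Eif2ak3) and ATF6 signal to the nucleus. IRE1 splices the messenger RNA of Xbp1, PERK slows translation and favours that of Atf4, and cleaved ATF6 enters the nucleus. Together these branches raise chaperones, the machinery that returns misfolded protein to the cytosol for degradation, and enzymes of amino acid supply. Cells with a large secretory load, such as plasma cells, are known for a strong form of the response.

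A shared promoter sequence, the ER stress response element (ERSE), is known to bind NF-Y at its CCAAT part and ATF6 at its CCACG part. RefSeq promoter windows of GRCm38.p6, from 250 bases before to 50 bases after the start of transcription, were matched for 34 of the 39 genes. The letters CCAAT, 9 bases of any kind and CCACG were searched on both strands. They were found in the windows of 9 of these 34 genes (26.5%), against 37 of the 27025 genes with a window (0.137%). The element is already known as a shared sequence of this response, so the higher share in the set is not an independent result. A match is a description of the letters and not a site of binding. The 60-base stretches below are shown because some of the genes that differed most between the arrays and some that hardly differed hold the same element. Each is written 5′ to 3′ on the strand of its gene, with the element in capitals, which reads as CGTGG to ATTGG where it lies on the opposite strand.
Creld2: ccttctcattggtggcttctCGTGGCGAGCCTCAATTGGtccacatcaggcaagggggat
Syvn1: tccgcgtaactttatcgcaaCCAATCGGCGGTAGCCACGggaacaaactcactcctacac
Hspa5: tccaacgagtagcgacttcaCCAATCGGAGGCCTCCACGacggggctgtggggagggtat
Pdia6: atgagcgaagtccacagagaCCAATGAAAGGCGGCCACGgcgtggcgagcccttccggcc
Hsp90b1, far element: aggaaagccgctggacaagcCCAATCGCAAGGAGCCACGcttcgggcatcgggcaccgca
Hsp90b1, near element: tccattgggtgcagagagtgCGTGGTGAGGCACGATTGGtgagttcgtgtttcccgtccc
Canx: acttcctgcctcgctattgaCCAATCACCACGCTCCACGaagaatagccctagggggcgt
Dnajc3: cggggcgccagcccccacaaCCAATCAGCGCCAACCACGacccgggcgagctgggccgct
Calr: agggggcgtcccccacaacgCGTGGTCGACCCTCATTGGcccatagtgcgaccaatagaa
Derl3: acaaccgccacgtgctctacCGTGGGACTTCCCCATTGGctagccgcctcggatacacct

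The Creld2 stretch lies at chr15:88819500-88819559 on the plus strand and the Syvn1 stretch at chr19:6046512-6046571 on the plus strand. The Hspa5 stretch is chr2:34772005-34772064 (plus) and the Pdia6 stretch chr12:17266471-17266530 (plus). The Hsp90b1 stretches are chr10:86705617-86705676 and chr10:86705512-86705571 (minus). The remaining stretches are chr11:50325779-50325838 for Canx (minus), chr14:118937807-118937866 for Dnajc3 (plus), chr8:84847054-84847113 for Calr (minus) and chr10:75893222-75893281 for Derl3 (plus). Probes have no coordinates here, since no source used here gives the build of their design.

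The arrays were close in overall brightness. Over 25697 probes the median signal was 66.1 on the metastatic-lung array and 72.2 on the normal-lung array. The share of probes with a detection p below 0.01 was 40.9% on the metastatic-lung array and 42.6% on the normal-lung array. S100a4, the sorting gene, had a signal of 1122 in metastatic-lung cells and 743 in normal-lung cells. The cells are labelled stromal. Of 9 fibroblast markers on the array, 7 were detected on at least 1 array and Col1a1 and Lum on neither, and 6 of 6 macrophage markers were detected, with group values for these lists given at the end.

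Of the 31 detected genes, 7 were at least 2-fold higher in metastatic-lung than in normal-lung cells. Among the 8128 genes detected on the array as a whole, the share was 5.89%. At least 2-fold lower were 0 of the 31, against 10.2%. The 7 include Chac1, which was detected on the metastatic-lung array alone. The set was chosen with earlier results of these data known, so its contrast with the array as a whole is a description. Creld2 stood at the top of the range at 3.07-fold higher, Calr, Canx and Dnajc3 had log2 ratios between 0.18 and 0.29, and Pdia3 had one of -0.61. A gene is represented below by its brightest probe, and its ratio is the difference of background-corrected, quantile-normalized log2 values, metastatic over normal lung, with an offset of 16 that understates the ratios of dim genes. A single array per group allows no test and no p-value, and array and condition cannot be told apart. In bulk RNA, fewer cells of a type and less RNA per cell cannot be told apart either. The one gauge of error is technical: over 1648 genes with 2 detected probes, the ratios of the probes had an SD of 0.25 on the log2 scale. Both probes of a gene are read on the same arrays, so this SD does not cover animals, cell sorting or amplification. It is not an error margin for the difference between the groups.

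Of the 34 measured genes, 31 were detected on at least 1 array and 30 on both. The 7 at least 2-fold higher were Creld2, Syvn1, Hyou1, Ern1, Chac1, Psat1 and Hspa5. The median log2 ratio of the 31 was 0.48, against 0.01 for all detected genes, and the ratios ran from -0.61 for Pdia3 to 1.62 for Creld2. A log2 ratio above 0 was found for 30 of 31, against 51.0% of all detected genes, though the sign turned for Derl2 in the authors' processed values and for Asns without quantile normalization. Before any processing, the signal was higher on the metastatic-lung array for 28 of 31, against 49.2% of all detected genes. The 3 with a lower signal were Pdia3, Trib3 and Asns.

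Several genes lay close to the 2-fold line. Hspa5 and Psat1, both with a log2 ratio of 1.0, were just inside it, and Pdia4 and Pdia6 (0.99 each), Manf (0.96) and Edem1 (0.93) were just outside. Beyond 2 SD of the spread between probes (0.50 on the log2 scale), 15 of 31 were higher, against 19.1%, and 1 was lower, against 21.0%.

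**Figure D1:**
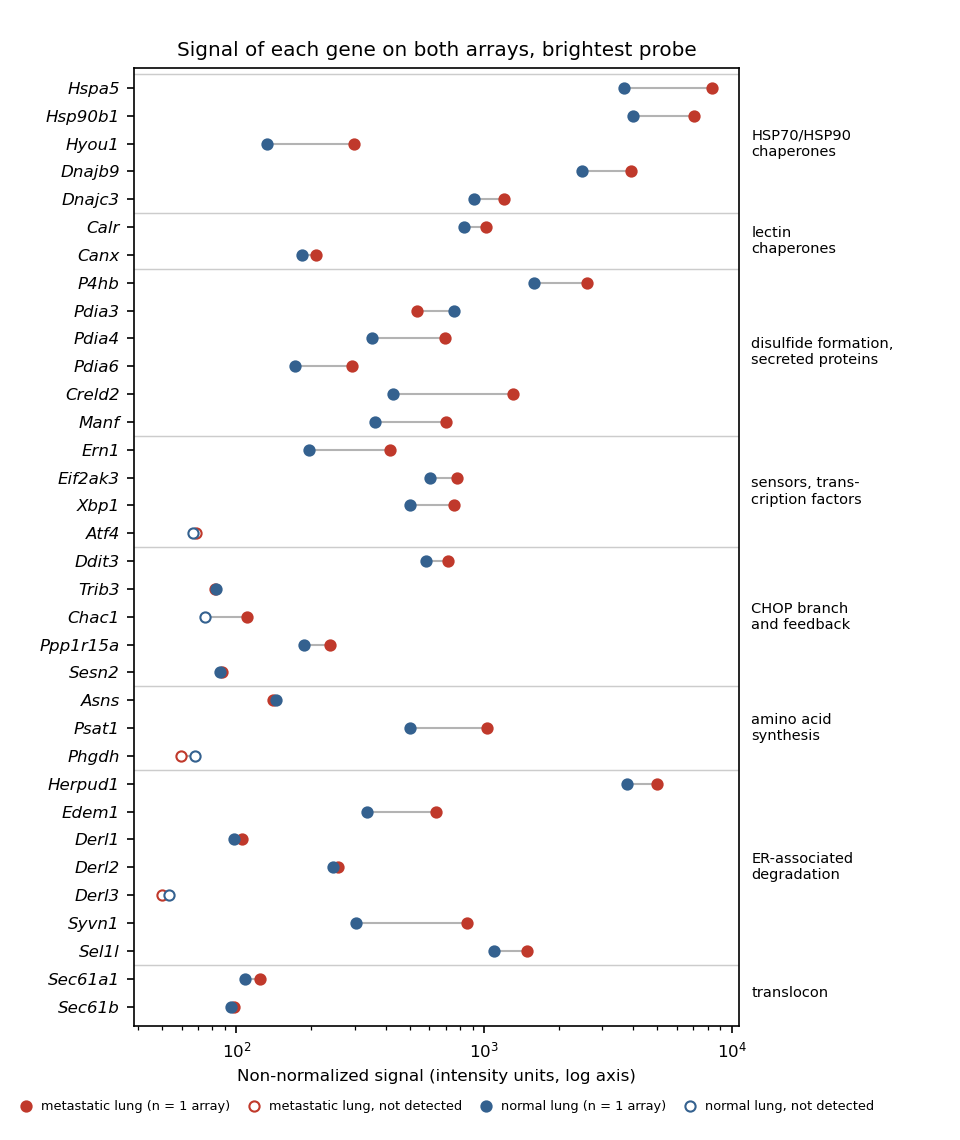
Non-normalized signal of the brightest probe of each of the 34 measured genes (intensity units, log axis), grouped by role, for the metastatic-lung array (red) and the normal-lung array (blue), with open circles for values not detected. The red point lies right of the blue one for most genes, with Pdia3 (537 in metastatic lung, 754 in normal lung) the clearest exception, and brightness is not comparable between genes because probes differ.

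**Figure D2:**
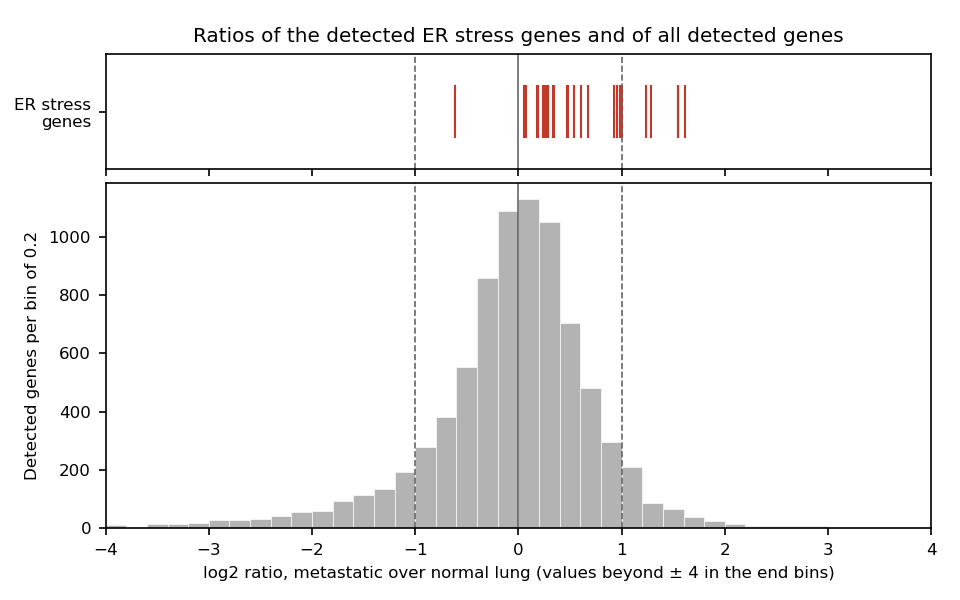
Log2 ratio of metastatic over normal lung for the 31 detected ER stress genes (red ticks, above) and for all 8128 detected genes (grey bars, genes per bin of 0.2, below), with dashed lines at 2-fold. The ticks lie to the right of the centre of the grey distribution (median 0.48 against 0.01), apart from Pdia3 at -0.61.

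The heat shock family chaperones of the ER lumen had a median log2 ratio of 0.68 over 5 detected genes, 2 of them at least 2-fold higher. Hspa5 encodes BiP, the ER HSP70 that binds exposed hydrophobic stretches and holds the stress sensors inactive. It had a signal of 8298 in metastatic-lung cells and 3671 in normal-lung cells, 2.0-fold higher. Hyou1, the large ER HSP70 that exchanges nucleotide on BiP, had a signal of 298 in metastatic-lung cells and 133 in normal-lung cells, 2.92-fold higher. Hsp90b1, the ER HSP90 known as GRP94, had a signal of 7060 in metastatic-lung cells and 4001 in normal-lung cells, a log2 ratio of 0.68. The differences of these 3 were larger than 2 SD of the spread between probes.

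The J-domain partners of BiP differed less. Dnajb9, whose product ERdj4 keeps IRE1 bound to BiP, had a signal of 3905 in metastatic-lung cells and 2481 in normal-lung cells, a log2 ratio of 0.54. A further and dimmer Dnajb9 probe did not repeat this, with signals of 89.8 in metastatic-lung cells and 99.4 in normal-lung cells and a log2 ratio of -0.04, and the mean of both probes was 0.25. Dnajc3, which encodes the co-chaperone p58IPK, had a signal of 1205 in metastatic-lung cells and 910 in normal-lung cells, a log2 ratio of 0.28.

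The lectin chaperones, which hold glycoproteins through their trimmed sugars, lay close to equality. Calreticulin (Calr) had a signal of 1018 in metastatic-lung cells and 831 in normal-lung cells, a log2 ratio of 0.18. Calnexin (Canx) had a signal of 210 in metastatic-lung cells and 185 in normal-lung cells, a log2 ratio of 0.29. Pdia3, the disulfide isomerase that works bound to these lectins, went the other way, with a signal of 537 in metastatic-lung cells and 754 in normal-lung cells and a log2 ratio of -0.61 (1.53-fold lower). Pdia3 was the single detected gene of the set with a ratio below 0, and it rests on 1 probe.

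The other disulfide isomerases had log2 ratios above 0 and none reached 2-fold. Pdia4 had a signal of 695 in metastatic-lung cells and 351 in normal-lung cells (1.98-fold higher). Pdia6, which works with BiP and also attenuates IRE1, had a signal of 294 in metastatic-lung cells and 172 in normal-lung cells (1.98-fold higher). P4hb, the classical isomerase PDI and a subunit of prolyl 4-hydroxylase, had a signal of 2606 in metastatic-lung cells and 1597 in normal-lung cells (1.52-fold higher). The signs of the isomerase ratios thus differed, negative for Pdia3 and positive for these.

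The ER stress-induced proteins that can be secreted stood among the larger differences. Creld2, an ER protein with EGF-like repeats, had a signal of 1303 in metastatic-lung cells and 429 in normal-lung cells, 3.07-fold higher. Its further probe had signals of 1009 in metastatic-lung cells and 388 in normal-lung cells, with a log2 ratio of 1.39 beside 1.62 for the brightest probe. Manf, a neurotrophic factor that binds BiP, had a signal of 702 in metastatic-lung cells and 361 in normal-lung cells, 1.94-fold higher. Both genes lay beyond 2 SD of the spread between probes.

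**Figure D3:**
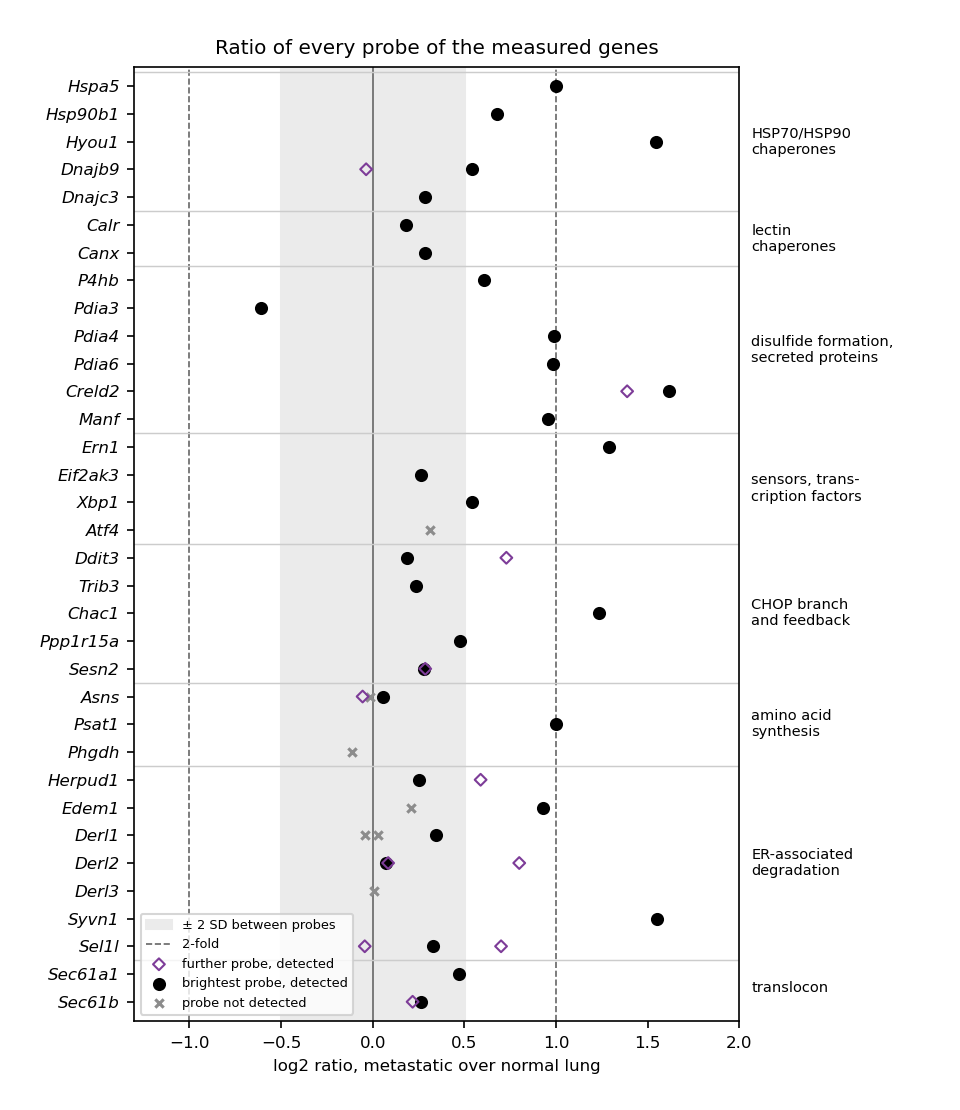
Log2 ratio of metastatic over normal lung for all 49 probes of the 34 measured genes, grouped by role, with the brightest probe of a gene as a filled circle, detected further probes as diamonds and probes not detected as crosses. The grey band is 2 SD of the spread between probes to each side of 0 and dashed lines mark 2-fold, and Creld2, Syvn1, Hyou1 and Ern1 lie right of the 2-fold line. Chac1 is drawn at its measured 1.24, but was not detected in normal lung and has a bound of 0.95, left of that line.

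Of the sensors and their transcription factors, Ern1 differed most. Ern1 had a signal of 418 in metastatic-lung cells and 196 in normal-lung cells, 2.44-fold higher, and its log2 ratio of 1.29 was 0.95 in the authors' processed values. Xbp1, whose spliced messenger encodes the factor of the IRE1 branch, had a signal of 754 in metastatic-lung cells and 502 in normal-lung cells, a log2 ratio of 0.54. Its single probe gives no reading of splicing here. Eif2ak3, the PERK gene, had a signal of 778 in metastatic-lung cells and 606 in normal-lung cells, a log2 ratio of 0.26. The probe of Atf4, the transcription factor made when PERK is active, was detected on neither array, with signals of 68.6 in metastatic-lung cells and 66.6 in normal-lung cells, and gives no fold.

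Genes downstream of ATF4 and CHOP, which other kinases of the integrated stress response also drive, showed mostly small differences. Ddit3, which encodes CHOP, had a signal of 713 in metastatic-lung cells and 582 in normal-lung cells, a log2 ratio of 0.19, while its dimmer probe had 111 in metastatic-lung cells and 89.4 in normal-lung cells, a log2 ratio of 0.73. Ppp1r15a, the phosphatase subunit GADD34 that reverses the translation block, had a signal of 240 in metastatic-lung cells and 187 in normal-lung cells, a log2 ratio of 0.48. Chac1, a glutathione-degrading enzyme, was detected on the metastatic-lung array alone, with a signal of 110 there and 74.6 in normal-lung cells. Its measured ratio was 2.36-fold, and against the lowest detected value of the normal-lung array it was at least 1.94-fold higher, which falls short of 2-fold. The deposited processed values gave Chac1 a log2 ratio of 0.61, and an offset of 50 gave 0.72, against the measured 1.24. With genes of 1 array at their bounds, 6 of 31 were at least 2-fold higher, against 5.09% of all detected genes, and 0 at least 2-fold lower, against 8.16%.

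A pair of dim genes of this group shows how far the processing reaches. Trib3, a pseudokinase that restrains ATF4 and CHOP, had a signal of 81.8 in metastatic-lung cells and 82.5 in normal-lung cells, yet a normalized log2 ratio of 0.24. The stress-induced sestrin gene Sesn2 had signals of 87.4 in metastatic-lung cells and 86.1 in normal-lung cells, with log2 ratios of 0.28 and 0.29 on its probes. The sign of the Trib3 ratio thus comes from background correction and normalization, and both genes lay within 2 SD of the spread between probes.

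The amino acid synthesis genes, known ATF4 targets, did not move together. Psat1, an aminotransferase of serine synthesis, had a signal of 1026 in metastatic-lung cells and 501 in normal-lung cells, 2.0-fold higher. Asns, asparagine synthetase, had a signal of 140 in metastatic-lung cells and 145 in normal-lung cells, with log2 ratios of 0.06 and -0.05 on its detected probes. Phgdh, the first enzyme of the serine pathway, was detected on neither array, with signals of 59.6 in metastatic-lung cells and 68.1 in normal-lung cells.

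ER-associated degradation sends misfolded proteins back through the membrane for ubiquitination. Syvn1, which encodes its central ubiquitin ligase HRD1, had a signal of 852 in metastatic-lung cells and 305 in normal-lung cells, 2.93-fold higher. Sel1l, the partner that stabilises HRD1, had a signal of 1493 in metastatic-lung cells and 1092 in normal-lung cells on its brightest probe, a log2 ratio of 0.33. Another bright Sel1l probe had 851 in metastatic-lung cells and 814 in normal-lung cells, a log2 ratio of -0.04. A dim one had 149 in metastatic-lung cells and 113 in normal-lung cells, a log2 ratio of 0.70. Edem1, which trims mannose from misfolded glycoproteins, had a signal of 641 in metastatic-lung cells and 337 in normal-lung cells, 1.90-fold higher.

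Other genes of the same route did not reach 2-fold on their brightest probes. Herpud1, an ER membrane scaffold of the ligase complex, had a signal of 4972 in metastatic-lung cells and 3770 in normal-lung cells, a log2 ratio of 0.25, and its further probe had 2989 in metastatic-lung cells and 1834 in normal-lung cells, a log2 ratio of 0.59. Derl1, a derlin of the membrane channel, had a signal of 105 in metastatic-lung cells and 98.1 in normal-lung cells, a log2 ratio of 0.35. Derl2 had a signal of 256 in metastatic-lung cells and 247 in normal-lung cells, with log2 ratios of 0.08 on its brighter probes and 0.80 on a dim probe that was detected in metastatic-lung cells alone. Derl3, the derlin known from secretory cells, was detected on neither array.

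The translocon, through which new proteins enter the ER, had 2 detected genes with small ratios. Sec61a1, the channel subunit, had a signal of 125 in metastatic-lung cells and 108 in normal-lung cells, a log2 ratio of 0.47. Sec61b had a signal of 97.5 in metastatic-lung cells and 95.5 in normal-lung cells, a log2 ratio of 0.26. Both are dim, and both differences lay within 2 SD of the spread between probes.

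Across the set, 11 genes had more than 1 probe. Of the 15 further probes, 11 were detected on at least 1 array, 8 of them with the sign of the brightest probe and 3 with the opposite sign, namely the dim Dnajb9 probe, 1 of Asns and 1 of Sel1l, all 3 close to 0. Among the 7 genes at least 2-fold higher, Creld2 was the only one with a further probe, so the other 6 rest on 1 probe each.

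A wider list of 118 genes of ER folding, translocation, degradation and stress signalling was read beside the set, with 110 on the array and 93 detected. Of these, 3 passed 2-fold upward and 3 passed it downward, against 5.89% and 10.2% of all detected genes, with a median log2 ratio of 0.11. The 25 detected further folding enzymes had a median of 0.11. Ero1b, the oxidase paralogue that recharges PDI, had a signal of 1202 in metastatic-lung cells and 458 in normal-lung cells, 2.61-fold higher. The thioredoxin-domain gene Txndc11 was 1.86-fold higher and Cnpy3, a chaperone of Toll-like receptors, 1.82-fold higher. The prolyl isomerase genes Ppic and Fkbp7 were 1.65-fold and 1.62-fold lower.

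Translocation and signal peptide genes had a median log2 ratio of 0.19 over 21 detected genes, none of them 2-fold different, with the translocon-associated Ssr2 the highest at 1.60-fold. The further degradation genes had a median of 0.18 over 18, with 1.98-fold for Ubxn4, which recruits the p97 ATPase to the ER membrane, 1.94-fold for the mannosidase-like Edem3 and 1.84-fold for the p97 cofactor Nploc4. Other stress transducers had a median of -0.24 over 9. In that group Mbtps2, the site-2 protease that releases ATF6, was 1.93-fold lower, the ER membrane protein gene Wfs1 1.84-fold and the ATF6-related factor gene Creb3 1.70-fold, while the stress kinase gene Mapk8 was 1.71-fold higher and the ER-anchored phosphatase gene Ptpn1 1.64-fold higher.

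Other integrated stress response genes went both ways, with a median log2 ratio of 0.01 over 20 detected genes. The cystine transporter gene Slc7a11 had a signal of 1551 in metastatic-lung cells and 391 in normal-lung cells, 4.08-fold higher. Bcl2l11, the pro-apoptotic BIM gene, had a signal of 3857 in metastatic-lung cells and 964 in normal-lung cells, 3.78-fold higher, and Cebpb, a partner of ATF4, was 1.86-fold higher. Atf3 had a signal of 267 in metastatic-lung cells and 577 in normal-lung cells, 2.49-fold lower. The mTORC1 inhibitor gene Ddit4 was 2.17-fold lower and the transcription factor gene Atf5 2.14-fold lower.

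**Figure D4:**
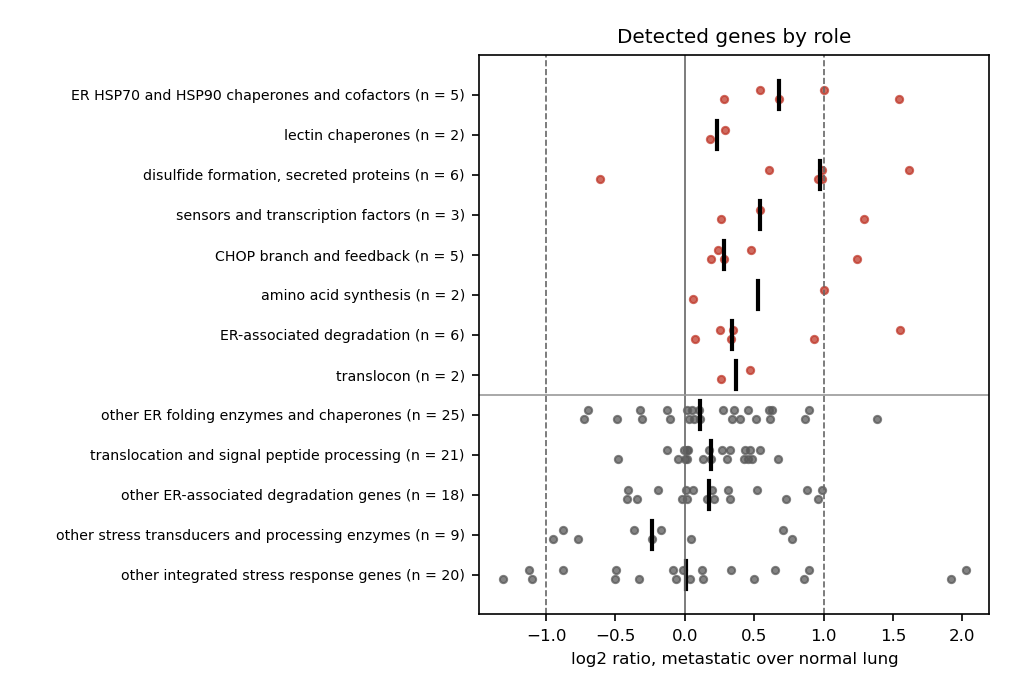
Log2 ratio of metastatic over normal lung for each detected gene, by role, for the ER stress genes (red, above the line) and the wider list (grey, below it), with the median as a black bar and dashed lines at 2-fold. The medians of the red groups lie between 0.23 and 0.97, those of the grey groups between -0.24 and 0.19.

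The promoter elements printed above can be set beside these ratios. The 8 detected genes of the set with an ERSE had log2 ratios from 0.18 (Calr) to 1.62 (Creld2), with a median of 0.83, and 3 of them (Creld2, Syvn1 and Hspa5) were at least 2-fold higher. The 19 detected genes with a window and no ERSE had a median of 0.33, from -0.61 to 1.29. Of these, 3 (Ern1, Chac1 and Psat1) were at least 2-fold higher. Chac1, detected on the metastatic-lung array alone, falls short of 2-fold at its bound of 0.95. Of all detected genes, 5.89% were at least 2-fold higher. Hyou1 (1.54), Manf (0.96), Sec61a1 (0.47) and Derl1 (0.35) had no matched window and stand in neither group. The ranges of the genes with and without an ERSE overlap over most of their length. The element lies at -65 to -47 in Hspa5, at -44 to -26 in Syvn1, at -98 to -80 in Pdia6 and at -162 to -144 in Calr, counted in bases from the start of transcription. Hsp90b1 is the single gene of the set with a pair of exact matches in its window, at -212 to -194 and at -107 to -89. Only the exact letters were searched, so a gene whose element departs from them stands among those without an ERSE.

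Other elements of the response were rarer in the set. The letters ATTGG, 1 base of any kind and CCACG, known as ERSE-II, were found in Herpud1 and Dnajb11, against 0.0444% of genes with a window. The letters TGACGTGG, a core of the unfolded protein response element, were found in 0 of 34, against 0.714%. The letters TGATGNAA, a core of the C/EBP-ATF response element (CARE) read by ATF4, were found in 4 of 34 (Asns, Chac1, Herpud1 and Trib3), against 4.51%. As with the ERSE, these are known elements of the response, and their shares in the set are a description. All were searched on both strands, and no ERSE-II overlapped an ERSE in the set. The stretches of Herpud1 at chr8:94386353-94386412 (plus, ERSE-II in capitals), Chac1 at chr2:119351023-119351082 (plus, CARE on the opposite strand in capitals) and Asns at chr6:7693210-7693269 (minus, CARE in capitals) show them beside unlike ratios of 0.25, at least 0.95 and 0.06 on the log2 scale.
Herpud1: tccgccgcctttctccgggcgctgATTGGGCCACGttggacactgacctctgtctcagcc
Chac1: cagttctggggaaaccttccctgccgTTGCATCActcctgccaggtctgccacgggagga
Asns: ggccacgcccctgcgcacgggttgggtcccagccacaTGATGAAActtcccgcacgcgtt

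**Figure D5:**
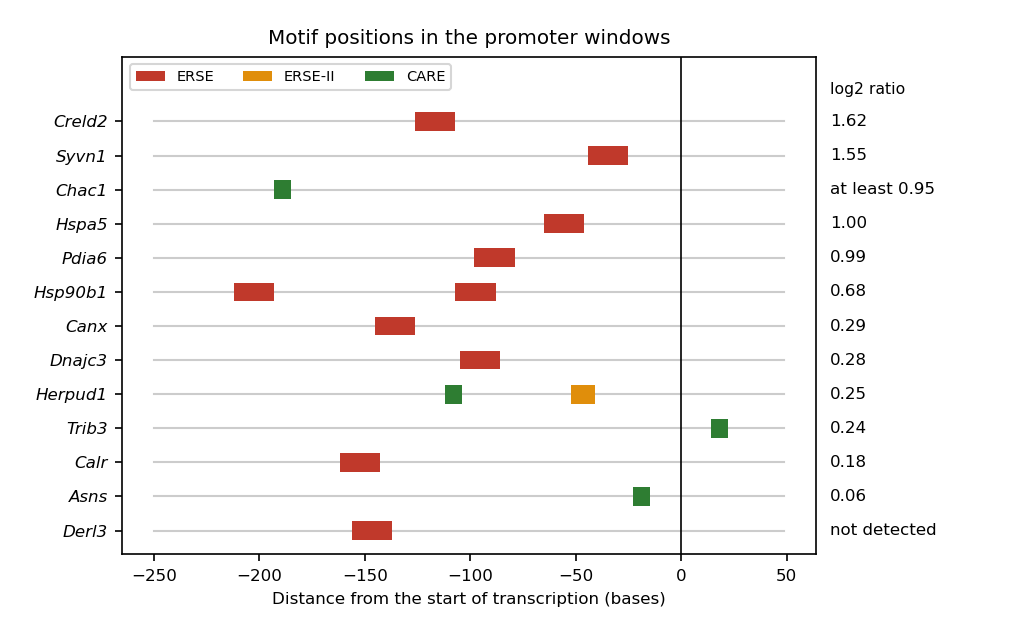
Position of the ERSE (red), ERSE-II (orange) and CARE (green) letters in the promoter windows of the genes on the array that hold one, in bases from the start of transcription, ordered by log2 ratio of metastatic over normal lung, which is printed at the right (for Chac1 as its bound, with its place set by the measured 1.24). ERSE holders stand both at the top (Creld2, 1.62) and near the bottom (Calr, 0.18) of the order.

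Markers of several cell types moved with the arrays, and their part in the ER stress ratios was not tested. The marker lists were also chosen with earlier results of these data known, so their counts are a description. Neutrophil and granulocyte precursor markers were at least 2-fold higher for 9 of 11 detected genes, against 5.89% of all detected genes. The signal summed over the list's genes on the array was 9118 in metastatic-lung cells and 4178 in normal-lung cells. Mpo, Elane, Ctsg and Prtn3 of that list were not detected in normal-lung cells. Other genes of the list did not rise. S100a9 was 1.80-fold lower, with a signal of 1542 in metastatic-lung cells and 2522 in normal-lung cells, and Csf3r had a log2 ratio of 0.10. Plasma and B cell markers were at least 2-fold lower for 5 of 7 detected genes, against 10.2% of all detected genes. With genes of 1 array at their bounds the count was 4, against 8.16%. The list had 1 gene at least 2-fold higher (Prdm1), and a summed signal of 916 in metastatic-lung cells and 1630 in normal-lung cells. Its defining genes Tnfrsf17, Cd79a and Ms4a1 were detected on neither array, and Jchain, Mzb1 and Irf4 were not detected in metastatic-lung cells.

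Macrophage markers were at least 2-fold lower for 5 of 6 detected genes, against 10.2% of all detected genes (summed signal 3365 in metastatic-lung cells, 9310 in normal-lung cells). The 5 were Mrc1, Chil3, Fabp4, Marco and Siglecf. Adgre1 lay close to equality, with a signal of 1456.1 in metastatic-lung cells and 1626.5 in normal-lung cells, a log2 ratio of -0.30. Fibroblast markers were at least 2-fold lower for 7 of 7, or for 6 with genes of 1 array at their bounds (883 in metastatic-lung cells, 2294 in normal-lung cells). Endothelial markers were at least 2-fold lower for 7 of 8 (808 in metastatic-lung cells, 3422 in normal-lung cells). Of all detected genes, 10.2% were at least 2-fold lower, or 8.16% with genes of 1 array at their bounds. Genes known to respond to cell dissociation did not share a direction. Of 9 detected, 6 had a log2 ratio of 0 or below, and the median was -0.83. Ier3 and the heat shock gene Hspa1a passed 2-fold upward and Egr1 and Atf3 passed it downward. The summed signal was 27621 in metastatic-lung cells and 27210 in normal-lung cells. Of these sums, Ier3 held 11797 in metastatic-lung cells and 3150 in normal-lung cells. The Hspa1a probe may share transcripts with the near-identical Hspa1b.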

How the data were processed

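Total RNA of sorted cells was amplified and biotin-labelled with a NuGEN WT-Ovation Pico kit, per the labels' protocols, and hybridised to 1 bead array per group. The deposited non-normalized table gives an intensity and a detection p-value per probe, per the file headers, and BeadStudio is named in the submitters' processing notes. A further table of the authors' processed intensity values was, for each array, a straight-line rescaling of the same signals (slope 0.942 and added constant 33.8 for metastatic lung, 1.08 and 9.31 for normal lung), with medians of 96.0 for metastatic and 87.2 for normal lung. It is linear and not centred, its method is not given, and it served as an alternative.

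From the deposited intensity values, log2 values were computed with neqc (limma 3.58.1, R 4.3.3), which corrects background from the detection p-values, adds an offset of 16 and quantile-normalizes. Tables and plots used Python 3.11.15, pandas 2.3.3, numpy 2.4.6 and matplotlib 3.10.9. Probes (23978 with 1 symbol, 0 with several, 1719 unnamed here) were named from a platform annotation updated to RefSeq GRCm38.p6 symbols. A gene took its probe with the highest mean, counted as detected at a detection p below 0.01, and was called at 2-fold with detection on its brighter array. Where 1 array detected it, a bound was set against the lowest detected value of the other array. The steps were tested on simulated arrays in which only bright probes were changed, all by more than 2-fold. That test does not cover dim genes or differences close to 2-fold. The number of arrays limits the precision. All 39 genes of the set are named, and of the wider list up to 3 detected on both arrays each way per group, if beyond 1.5-fold. The members and lists were chosen with earlier results of these data known.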

Additional observations from a re-analysis of the deposited data

How the results depend on the processing

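The count of 7 genes at least 2-fold higher in metastatic lung became 3 in the authors' processed values (1.96% of all detected genes) and 4 with an offset of 50 (2.94%). It was 10 without quantile normalization, with arrays centred on the median (5.44%), and 6 with detection on both arrays (5.07%) or with Chac1 at its bound (5.09%). At 1.5-fold, 13 genes of the set were higher (16% of all detected genes) and 1 lower (18.6%), and 18 of the wider list were higher and 9 lower, against 3 and 3 at 2-fold. The median log2 ratio of the set lay between 0.29 and 0.48 over the 8 settings that give one, and 0 genes were at least 2-fold lower in each of these. Creld2, Syvn1 and Hyou1 were at least 2-fold higher in 8 of 8 settings, Ern1 in 7, Hspa5 and Psat1 in 6, and Chac1 in 4 of 7. Settings that change only the detection filter leave a gene's ratio as it was. For a gene with 1 probe detected on both arrays, such as Syvn1 or Hyou1, only 3 settings could change it. These were the authors' values, the offset of 50 and the lack of quantile normalization. Of 247 single-gene ratios recomputed, many of them thus fixed, 238 moved by less than the SD between probes (0.25) and 9 by more. These 9 belonged to Chac1, Hyou1, Pdia6, Ern1, Dnajb9 and Ddit3. The Hyou1 log2 ratio of 1.54 became 1.04 in the authors' values and 1.25 with an offset of 50. That of Pdia6 went from 0.99 to 0.67 in the authors' values. The cause of these moves was not tested. No paired analysis was possible because each group has 1 array, and no array could be left out.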

Other observations

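Beyond the set, 28 genes with a promoter window hold the ERSE letters, of which 9 are on the array and 4 were detected. Their log2 ratios of metastatic over normal lung were 1.38 for Ero1b, 0.65 for the deadenylase subunit gene Pan2, 0.38 for Alg12, a mannosyltransferase gene of glycan assembly, and 0.09 for the RNA-binding protein gene Hnrnpa3. Alg12 and Creld2 are transcribed away from each other and hold the same ERSE, at chr15:88819520-88819538 of GRCm38.p6. It lies at -220 to -202 from the Alg12 start and at -126 to -108 from the Creld2 start, beside log2 ratios of 0.38 for Alg12 and 1.62 for Creld2.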
